A study of Mus musculus with 2 samples.

Results

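Early B-lineage cells that carried surrogate light chain transcripts numbered 52 of the 6681 barcodes kept from single-cell RNA-seq of mouse temporomandibular joint (TMJ), the joint between the jaw and the skull. A barcode was counted when it held at least 500 genes, at most 10% mitochondrial and at most 1% hemoglobin transcripts, and at least 3 unique molecular identifiers (UMIs, each standing for 1 captured transcript) from Cd79a and Cd79b together. It also needed at least 1 UMI from Igll1 or Vpreb1, fewer than 2 from Pecam1 and Cdh5 together, and fewer than 10 from Lyz2. These 52 cells, called members here, comprised 29 of 2667 kept barcodes after PBS and 23 of 4014 after CFA, out of 7671 and 5709 deposited barcodes. The levels of Cd79a, Cd79b, Igll1, Vpreb1, Pecam1, Cdh5 and Lyz2 were thus used: the members were chosen by these values, which are given as a description.

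The mice were female wild-type C57BL/6 animals (C57BL/6J per the study's methods), labelled 8–10 weeks old, that received PBS or complete Freund's adjuvant (CFA, an oil emulsion with killed mycobacteria that causes inflammation) in the joint on both sides. Per the study's methods, each injection was 10 µL (CFA at 5 mg/mL) and was given at 8 weeks of age. After 3 weeks the joint was taken with its bone, disc, ligament and muscle, and the tissue was pooled within a condition. Magnetic beads were used to deplete cells bearing CD45, the pan-leukocyte surface protein, so every share of B-lineage cells below is a share of a depleted suspension. Each condition was 1 library, so no difference between PBS and CFA had a replicate check, no test was run, and the animals behind a library could not be separated. The intervals given are 95% intervals, exact binomial (Clopper-Pearson) for shares, log-normal for the ratio of 2 shares and exact Poisson for UMI sums and their ratios, and cover counting error only.

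B cells are built in bone marrow through ordered steps. A pro-B cell rearranges its immunoglobulin heavy chain gene with the recombinase RAG1/RAG2, while terminal transferase (Dntt) adds untemplated bases at the joins. Once a heavy chain is made, it is tested on the surface together with the surrogate light chain, a stand-in made of λ5 (Igll1) and VpreB (Vpreb1 and Vpreb2). This pre-B cell receptor signals through Cd79a and Cd79b, drives a burst of division of large pre-B cells, and shuts down surrogate light chain transcription, after which small pre-B cells rearrange the κ or λ light chain.

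Igll1 and Vpreb1 lie close together, and the other surrogate light chain genes do not. In the GENCODE annotation of build GRCm38, Igll1 (ENSMUSG00000075370; chr16:16860671-16863985, minus strand) ended 4417 bases from Vpreb1 (ENSMUSG00000059305; chr16:16868403-16870843, minus strand). Vpreb2 (ENSMUSG00000059280; chr16:17980428-17981273, plus strand) lay on the same chromosome, 1109.58 kilobases from Vpreb1, and Vpreb3 (ENSMUSG00000000903; chr10:75943057-75949657, plus strand) on another. The Vpreb1 and Vpreb2 transcripts were identical at 739 of 759 aligned bases (97.4%), so reads could be shared between them and their separate values are uncertain. Vpreb1 also overlapped Top3b, on the opposite strand, by 108 bases.

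The 250 bases before the RefSeq start of the surrogate light chain genes, and of Dntt, whose transcripts are used below to group the members, are shown because Ebf1 and the E-box binding proteins that are known to act on surrogate light chain genes were transcribed in these cells. They run 5′ to 3′ on the gene's own strand in GRCm38.p6, at chr16:16863986-16864235 (Igll1, minus), chr16:16869256-16869505 (Vpreb1, minus), chr16:17980315-17980564 (Vpreb2, plus), chr10:75948050-75948299 (Vpreb3, plus) and chr19:41029025-41029274 (Dntt, plus). The RefSeq starts of Vpreb1, Vpreb2 and Vpreb3 fell inside the GENCODE genes, so these windows overlap annotated gene sequence. Capitals mark matches on either strand to CCCNNGGG, the core of the EBF1 motif, and to the E-box CANNTG.
Igll1: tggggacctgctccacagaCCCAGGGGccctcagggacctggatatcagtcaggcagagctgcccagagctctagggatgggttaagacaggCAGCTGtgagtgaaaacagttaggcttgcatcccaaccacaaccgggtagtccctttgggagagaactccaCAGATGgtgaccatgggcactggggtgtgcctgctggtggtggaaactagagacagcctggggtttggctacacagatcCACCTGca
Vpreb1: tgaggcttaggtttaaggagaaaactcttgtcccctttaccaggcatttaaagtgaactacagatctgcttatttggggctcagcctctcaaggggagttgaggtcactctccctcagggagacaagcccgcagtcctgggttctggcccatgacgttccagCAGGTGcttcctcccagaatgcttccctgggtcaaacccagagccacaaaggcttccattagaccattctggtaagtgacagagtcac
Vpreb2: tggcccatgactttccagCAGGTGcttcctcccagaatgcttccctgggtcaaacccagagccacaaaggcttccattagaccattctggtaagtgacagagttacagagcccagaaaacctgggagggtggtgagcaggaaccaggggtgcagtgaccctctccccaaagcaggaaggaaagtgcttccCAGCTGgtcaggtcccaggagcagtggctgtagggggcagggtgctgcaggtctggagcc
Vpreb3: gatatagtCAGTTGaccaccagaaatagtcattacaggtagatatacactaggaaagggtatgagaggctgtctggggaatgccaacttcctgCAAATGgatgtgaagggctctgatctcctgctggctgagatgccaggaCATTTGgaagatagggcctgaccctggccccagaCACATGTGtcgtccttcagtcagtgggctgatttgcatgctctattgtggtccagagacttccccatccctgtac
Dntt: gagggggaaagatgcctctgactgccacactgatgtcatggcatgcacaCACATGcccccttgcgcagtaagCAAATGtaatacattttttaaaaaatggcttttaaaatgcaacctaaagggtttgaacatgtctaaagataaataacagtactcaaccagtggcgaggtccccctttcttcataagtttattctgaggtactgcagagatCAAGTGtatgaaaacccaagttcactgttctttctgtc
Igll1 held 1 EBF core match, 231 bases before its start, and the other 4 windows held none. Among 27025 RefSeq promoter windows of this length, 11.7% held at least 1 EBF core. E-boxes numbered 3 in Igll1, 1 in Vpreb1, 2 in Vpreb2, 5 in Vpreb3 (a pair of them overlapping) and 3 in Dntt, and 66.04% of all windows held at least 1. The TCF/LEF core CTTTGA was in none of the 5 and in 14.1% of all windows. Bases 145 to 247 of the Vpreb1 window and bases 1 to 103 of the Vpreb2 window agreed at 102 of 103 positions. These matches describe letters and do not show binding.

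Members were 1.09% (0.729 to 1.56) of kept cells after PBS and 0.573% (0.364 to 0.859) after CFA, a CFA to PBS ratio of 0.527 (0.306 to 0.909). All B-lineage cells found by the same limits without the surrogate requirement were also a smaller share after CFA, 56 cells or 1.40% (1.06 to 1.81), than after PBS, 90 cells or 3.37% (2.72 to 4.13). Members made up 32.2% (22.8 to 42.9) of B-lineage cells after PBS and 41.1% (28.1 to 55.0) after CFA, with a ratio of 1.27 whose interval, 0.826 to 1.97, included 1. A smaller share of kept cells cannot be told apart from a larger number of other cells recovered, and bead depletion was done once per condition. With every barcode thinned to 1000 UMIs before the rule was applied, the ratio of the shares of kept cells was 0.288 (0.111 to 0.749), from 14 and 6 cells. Without the limit on hemoglobin transcripts it was 0.753 (0.453 to 1.25), from 41 of 5845 and 23 of 4353 barcodes. With at least 2 surrogate UMIs required it was 0.636 (0.355 to 1.14), from 23 and 22 cells, and both of these intervals included 1.

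Members held 2888 to 18731 UMIs after PBS (median 5752) and 2598 to 31418 after CFA (median 5807), beside medians of 7022 and 6509.5 over all kept cells. Cd79a and Cd79b together gave 7 to 28 UMIs a cell after PBS (median 16) and 3 to 22 after CFA (median 10). In CFA, 3 members stood at the limit of 3, and 1 barcode in each library stood just outside it with 2. Igll1 and Vpreb1 together gave up to 62 UMIs after PBS (median 17) and 60 after CFA (median 12). A single surrogate UMI chose 6 PBS members and 1 CFA member, whereas 18 and 15 members held 10 or more. Igll1 was detected in 27 PBS and 23 CFA members, Vpreb1 in 22 and 22, and both in 20 and 22. Lyz2 set aside 1 barcode in each library, with 98 and 597 UMIs, and its highest count in a member was 2 and 5. The hemoglobin limit set aside 12 PBS and 0 CFA barcodes that met the other conditions. Both libraries shared 10 barcodes, and 0 members were among them.

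The label was checked on genes the rule did not use. Vpreb3, which binds the μ heavy chain inside the cell and was detected in 27 of 29 PBS and 23 of 23 CFA members, was found in 0.773% and 0.609% of endothelial comparison cells. It was also in 60 of 61 PBS and 30 of 33 CFA B-lineage cells without a surrogate UMI, so it marks the lineage and not the early stage. Those comparison cells were 776 PBS and 985 CFA barcodes with at least 5 UMIs from Pecam1 and Cdh5 and fewer than 3 from Cd79a and Cd79b, with median depths of 6641 and 5194 UMIs. Dntt was detected in 17 of 29 (58.6%) PBS and 10 of 23 (43.5%) CFA members, and in 5 of 776 (0.644%) and 10 of 985 (1.02%) endothelial cells. After thinning to 1000 UMIs, Dntt was still found in 11 and 6 members and in 3 and 3 endothelial cells. Igll1 and Vpreb1 themselves were in few endothelial cells (0.387% and 0.305% for Igll1, 3.61% and 0.914% for Vpreb1), so a single surrogate UMI in a barcode could be background. The PBS members without Vpreb3 each held 1 surrogate UMI and no Dntt. They held 46 and 21 UMIs of Cd74, 3 and 11 of Ms4a1 and 30 and 16 of Igkc, all genes of later B cells. For these cells the early label is not borne out.

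Markers of other cell types were present in the members at different levels. The 6 macrophage markers summed to 0 UMIs over the PBS members and 3 over the CFA members, and the 8 T and NK cell markers to 2 and 4. The endothelial genes Flt1 and Kdr were at 0 in PBS and at 1 UMI each in CFA. The 8 neutrophil markers summed to 33 UMIs in 18 of 29 PBS members and to 43 UMIs in 18 of 23 CFA members, with up to 4 in a cell and 1 and 2 of the genes at 0. That was 162 and 217 CPM (counts per 1000000 UMIs), against 2301 and 1893 CPM in the endothelial comparison cells. The 4 plasmacytoid dendritic cell markers summed to 26 and 65 UMIs, all from Irf8 (19 and 26), which B-lineage cells also use, and Bst2 (7 and 39), while Siglech and Ccr9 were at 0. The part of these transcripts in the results was not tested. Fibroblast markers reached 613 and 740 UMIs, nearly all from 4 barcodes with at least 1% of their UMIs from the fibroblast markers, Prg4 and Acta2. In PBS these held 13192 UMIs with 287 from Acta2, 17354 with 751 from Prg4, and 18731 with 224 from Dcn. The CFA barcode held 31418 UMIs, with 319 from Col3a1 and 227 from Dcn. Each of the 4 also held Dntt and at least 18 surrogate UMIs, and together they gave 24.2% of the PBS and 15.8% of the CFA members' UMIs. Without them the fibroblast markers summed to 44 and 17 UMIs. Values that change without these barcodes (called stromal-RNA members below) are given both ways, and the doublet caller scrublet placed 1 member of each library in the top 5% of scores.

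The Pecam1 limit removed cells that also held early B-lineage transcripts. Pecam1 encodes CD31, an adhesion protein of endothelial cells that blood cells also carry. Of barcodes with enough Cd79 and surrogate UMIs, 35 PBS and 29 CFA were set aside by the Pecam1 and Cdh5 limit, and 34 and 27 of these had no UMI of Cdh5, which encodes the endothelial VE-cadherin. Exactly 1 Pecam1 or Cdh5 UMI was held by 17 PBS and 9 CFA members, and 14 and 6 of the cells outside held exactly 2. Flt1, Kdr and Tie1 were at 0 in the PBS cells outside and at 1, 1 and 0 UMIs in the CFA cells outside, while Flt1 stood at 2425 and 2657 CPM in endothelial cells. Pecam1 itself was 304 and 603 CPM outside the limit, against 1075 and 1209 CPM in endothelial cells.

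The cells outside held surrogate and early B-lineage transcripts, some near the members' levels and some lower. Vpreb3 was 2106 CPM outside and 2732 CPM in members after PBS, and 2037 and 1702 CPM after CFA. Ebf1, a transcription factor that sets the B-cell program, was 8406 CPM outside and 9075 CPM in members after PBS, and 11232 and 10428 CPM after CFA. Vpreb1 had outside to member ratios of 0.657 (0.567 to 0.762) after PBS and 0.672 (0.547 to 0.825) after CFA. In the same order, Igll1 stood at 0.884 and 0.770 and Lef1 at 0.707 and 0.804. Dntt stood at 0.718 (0.559 to 0.923) and 1.10 (0.756 to 1.61), Erg at 0.627 and 1.49, and Rag1 at 0.544 and 1.25. Mki67, a marker of dividing cells, was 636 CPM outside against 251 CPM in members after PBS, a ratio of 2.54 (1.87 to 3.51), and 611 against 564 CPM after CFA, a ratio of 1.08 (0.842 to 1.40). Without the Pecam1 limit and with Cdh5 at 0, the set grew to 61 PBS and 50 CFA cells, 2.29% and 1.25% of kept cells (ratio 0.545, 0.376 to 0.789). After PBS this wider set held more neutrophil and Schwann cell transcripts than the members. The 8 neutrophil markers stood at 1526 against 162 CPM after PBS and at 230 against 217 CPM after CFA. The 4 Schwann cell markers stood at 307 against 68.8 CPM and at 56.5 against 50.4 CPM. The part of these transcripts in the results was not tested. Results are given for this wider set where they differ.

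**Figure D1:**
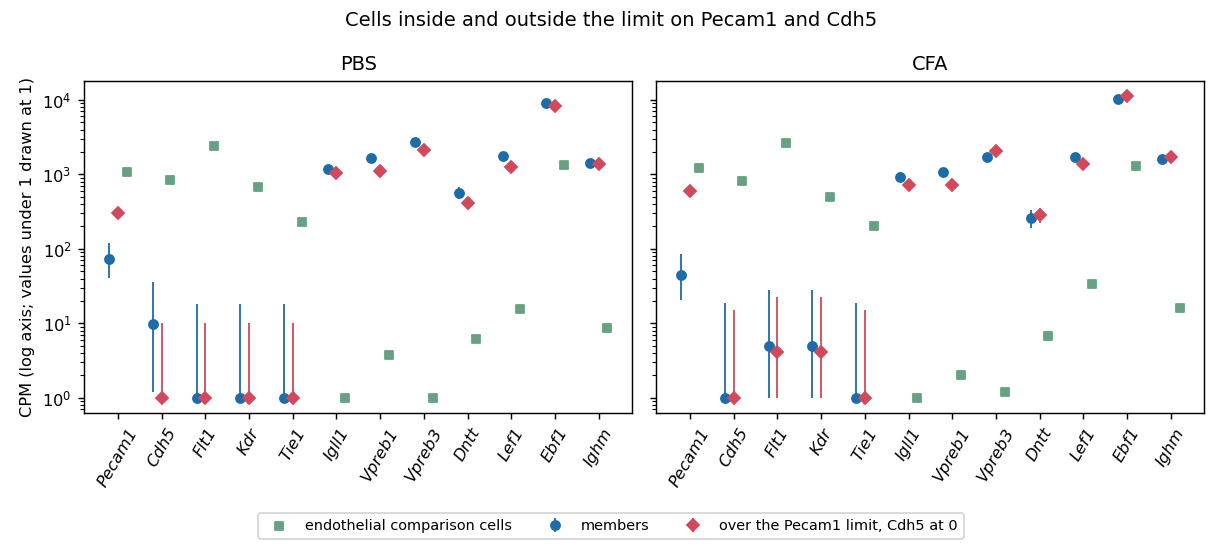
Summed CPM (log axis, values under 1 drawn at 1) of 12 genes in members, in cells that only the Pecam1 limit set aside, and in endothelial comparison cells, for each library, with 95% counting intervals. Cells outside the limit sit near the members for Igll1, Vpreb3, Ebf1 and Ighm and near 0 for the endothelial genes Flt1, Kdr and Tie1.

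The members fell into groups by 2 measures, Dntt transcripts and cell cycle transcripts. A cell was called dividing when 20 DNA replication and 20 mitosis genes together gave at least 0.3% of its UMIs, a value set after the data were seen. The highest cell under it had 0.207% and the lowest over it 0.519%. By these measures 16 members were dividing, 25 were Dntt-positive and not dividing, and 11 were Dntt-negative and not dividing. In PBS the shares were 24.1% dividing (10.3 to 43.5), 51.7% Dntt-positive (32.5 to 70.6) and 24.1% Dntt-negative. In CFA they were 39.1% dividing (19.7 to 61.5), 43.5% Dntt-positive (23.2 to 65.5) and 17.4% Dntt-negative (5.0 to 38.8), so all intervals overlapped between conditions. In the wider set the dividing share was 22 of 61 (36.1%) after PBS and 20 of 50 (40%) after CFA. Among cells that only the Pecam1 limit set aside, 47.1% were dividing and 23.5% Dntt-positive after PBS, and 40.7% and 25.9% after CFA.

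Surrogate light chain transcripts were most abundant per cell in the Dntt-positive cells. All 25 of them held at least 11 Igll1 and Vpreb1 UMIs, up to 62, and all 25 held both genes. Dividing members held 1 to 43 (median 3.5) and Dntt-negative members 1 to 23 (median 4). Dividing cells were nevertheless the deepest, with a median of 9245.5 UMIs against 4981 in Dntt-positive and 3782 in Dntt-negative members. As summed CPM, Igll1 and Vpreb1 in PBS stood at 4644 in Dntt-positive, 531 in dividing and 1077 in Dntt-negative cells. In CFA they stood at 3267, 960 and 3236. All of the stromal-RNA members were Dntt-positive. Without them the Dntt-positive cells stood at 7216 CPM after PBS and 4685 CPM after CFA. The 4 Dntt-negative CFA cells were thus level with the Dntt-positive ones only when the stromal-RNA members were included. Vpreb3 had medians of 15 UMIs in Dntt-positive, 14.5 in dividing and 13 in Dntt-negative members, not corrected for depth. As summed CPM it was 3235, 1904 and 2640 after PBS and 1746, 1362 and 4191 after CFA, lowest in the dividing cells of both libraries.

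**Figure D2:**
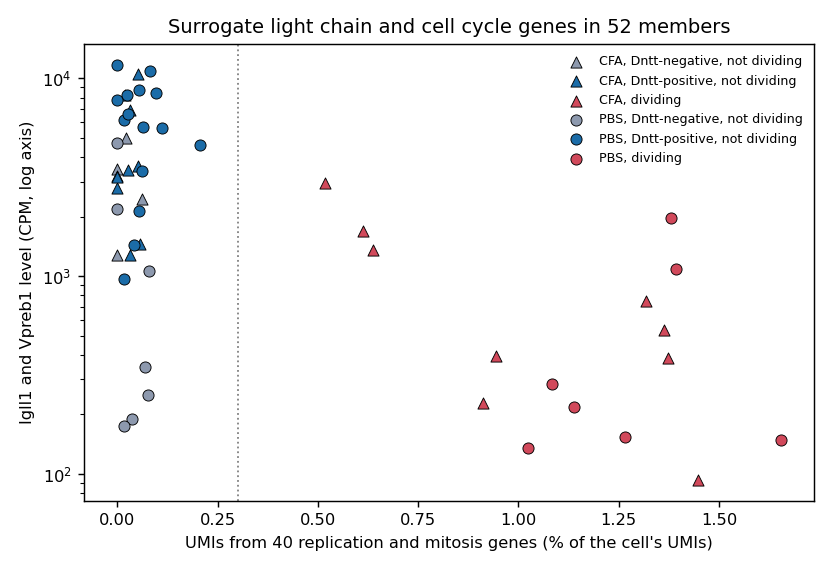
Each point is 1 of the 52 members, placed by the share of its UMIs from 40 cell cycle genes (%) and by its Igll1 and Vpreb1 level (CPM, log axis), with PBS as circles, CFA as triangles and the dotted line at 0.3%. Cells right of the line stand lower in surrogate light chain level than most Dntt-positive cells on the left.

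Several stage markers outside the rule also differed between the groups, given here as medians over both libraries. Lef1, a transcription factor of early B and T progenitors, had medians of 17 UMIs a cell in Dntt-positive, 6 in dividing and 2 in Dntt-negative members. Erg, an ETS-family factor of progenitors, had medians of 5, 0 and 0, although in CFA alone they were 4.5, 0 and 2.5. Erg was also detected in 80.5% of PBS and 72.5% of CFA endothelial comparison cells, so it is not particular to the B lineage. Il7r, the receptor subunit for the growth factor IL-7, had medians of 1, 8 and 1, and Cd24a, a surface protein of developing B cells, 1, 12.5 and 2. The dividing cells were the deepest, so their higher medians of Il7r and Cd24a also reflect depth. As summed CPM, Cd24a was highest in the dividing cells of both libraries, at 1124 against 199 in Dntt-positive and 625 in Dntt-negative cells after PBS, and at 1371 against 145 and 441 after CFA. Il7r was 181, 671 and 347 CPM in Dntt-positive, dividing and Dntt-negative PBS cells and 159, 649 and 809 CPM in CFA cells. The Dntt-negative cells thus stood highest after CFA, but from 11 UMIs, of which 1 cell held 8.

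After PBS, immunoglobulin transcripts were fewest in the Dntt-positive cells, while after CFA the order for Ighm depended on the stromal-RNA members. Ighm, the μ heavy chain, had medians of 6, 19.5 and 11 UMIs in Dntt-positive, dividing and Dntt-negative members. As summed CPM it was 723, 1842 and 3057 after PBS and 1349, 1709 and 2500 after CFA, so the Dntt-negative cells stood highest. Without the stromal-RNA members, Ighm in the Dntt-positive cells was 977 CPM after PBS and 2105 CPM after CFA. After CFA this was above the 1709 CPM of the dividing cells. Igkc, the κ light chain constant gene, was at 0 UMIs over the 15 Dntt-positive PBS cells and at 10 over the 10 CFA cells. It summed to 158 UMIs over the 7 Dntt-negative PBS cells, in all 7 of them, and to 4 over the 4 Dntt-negative CFA cells. Ikzf3 (Aiolos, a transcription factor of pre-B and later B cells) reached at least 2 UMIs in 0 of 25 Dntt-positive and 11 of 16 dividing members, and in 7 of 7 Dntt-negative PBS but 1 of 4 Dntt-negative CFA cells. Dntt was found in 27 members and Igkc in 27, and only 5 members held both.

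**Figure D3:**
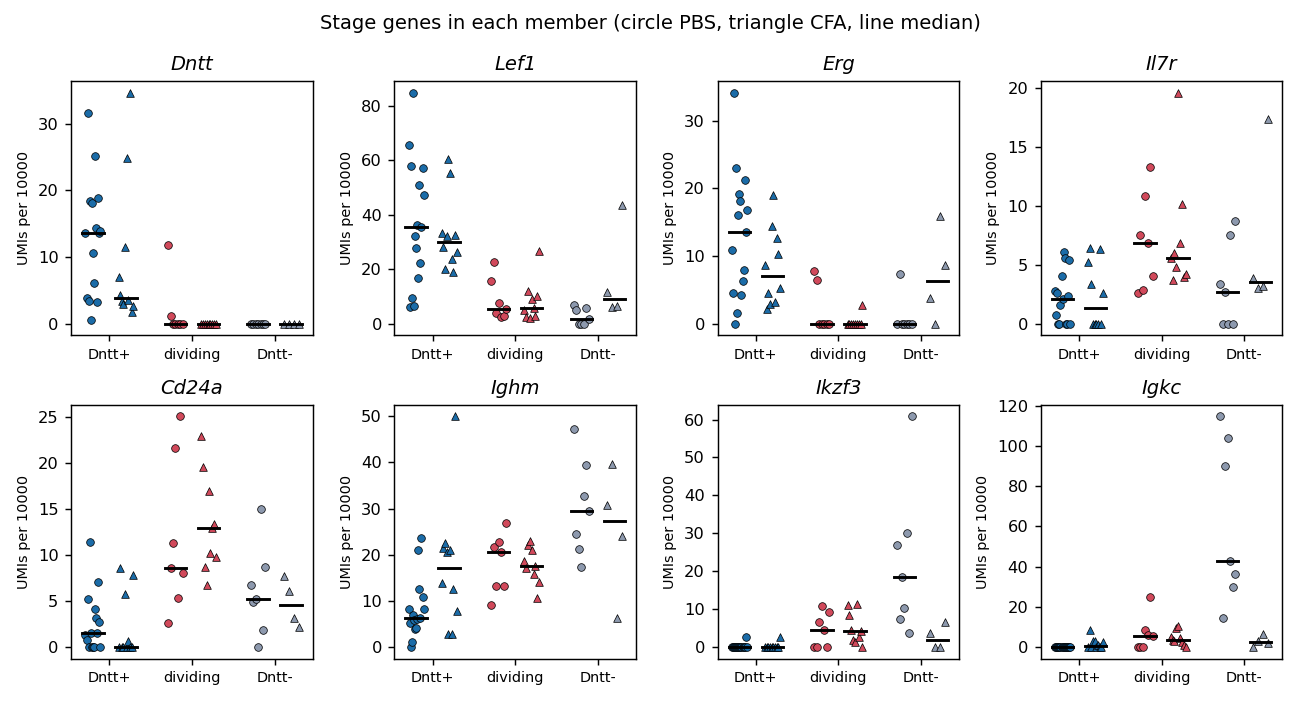
Each panel shows 1 gene as UMIs per 10000 UMIs of the cell in every member, grouped as Dntt-positive, dividing and Dntt-negative, with PBS as circles, CFA as triangles and medians as lines. By the medians over both libraries Lef1 and Erg stand highest in Dntt-positive cells and Il7r and Cd24a in dividing cells, and Igkc in the Dntt-negative PBS cells.

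Members were compared with the B-lineage cells that had no Igll1 or Vpreb1 UMI, 61 after PBS and 33 after CFA, with median depths of 3313 and 4319 UMIs. These are called surrogate-negative. In CFA, 3 of the 33 cells gave 54.0% of that group's UMIs. One held 112787 UMIs with 1383 from Calca and 474 from Tac1, neuropeptide genes, another 33161 UMIs with 18162 from Igkc and 2825 from Igha, and another 31697 UMIs with 533 from Col3a1. One PBS cell held 243 Dcn UMIs. With these 4 cells and the 4 stromal-RNA members left out, a choice made after the values were seen, 60 PBS and 30 CFA surrogate-negative cells remained, and the values below are of these sets unless stated.

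Dntt and Lef1 were among the genes that were higher in members in both libraries. Of 3421 genes averaging at least 50 CPM, 129 (3.77%) were at least 2-fold higher in members in both libraries and 145 (4.24%) at least 2-fold lower. With all cells the counts were 112 (3.34%) and 57 (1.7%) of 3352. Dntt was detected in 0 of 61 PBS and 0 of 33 CFA surrogate-negative cells, which allows shares of up to 4.92% and 9.09%. Dntt was at least 51.0-fold higher in PBS members, at 674 CPM, and at least 12.1-fold in CFA members, at 239 CPM, against the limit of 3 UMIs over the group that a count of 0 allows.

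Among 20 transcription factors of the B lineage, Lef1 and Erg were at least 2-fold higher in members in both libraries, Spib at least 2-fold lower, and 19 were expressed highly enough to be compared. Lef1 stood at 2113 against 220 CPM after PBS (ratio 9.59, 7.10 to 13.2) and 1573 against 218 CPM after CFA (ratio 7.21, 5.01 to 10.7). Erg was 12.7-fold and 6.46-fold higher. Ebf1 and Pax5, which set and hold B-cell identity, lay closer, with member ratios of 1.28 and 0.95 for Ebf1 and 0.71 and 0.62 for Pax5. Bach2, a repressor of plasma cell fate, was lower, at ratios of 0.55 and 0.48.

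Other leading genes of the members were Arpp21, an RNA-binding phosphoprotein, Gfra2, a receptor of the neurturin family, Tiam1, a Rac activator, and Eng (endoglin). Arpp21 was at least 23.04-fold higher after PBS and 19.0-fold (4.94 to 162) higher after CFA, where the surrogate-negative cells held 2 UMIs. The transcript 2900026A02Rik was 41.2-fold (6.81 to 1684) and 16.7-fold (4.31 to 143) higher, against 1 and 2 UMIs. Gfra2 was 14.7-fold (4.57 to 75.3) higher after PBS and at least 7.53-fold after CFA, and Tiam1 12.5-fold and at least 6.93-fold. Eng was 39.7-fold (6.55 to 1626) and 16.3-fold (2.57 to 678) higher, against 1 UMI in each library. Lig1, a DNA ligase of replication, was 6.62-fold and 9.27-fold higher. Of 12 DNA replication genes that could be compared, 10 were at least 2-fold higher in both libraries and the list stood at 2.69 (PBS) and 4.65 (CFA). The 20 mitosis genes stood at 0.966 and 1.25.

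Both RAG genes were also measured. Rag1 had ratios of 0.82 and 0.77, and Rag2 of 3.82 and 2.26, from small sums. Rag1 was in 16 of 29 PBS and 12 of 23 CFA members, and in 21 of 61 and 14 of 33 surrogate-negative cells. Il7r was 0.95 and 0.71, and Vpreb3 1.44 and 0.91. Mzb1, a chaperone for the μ heavy chain, was 2.33-fold and 1.97-fold higher, and Itga4, an integrin subunit that holds cells to stroma, 2.02-fold and 2.71-fold.

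Light chain and later B-cell genes were lower in members. The 4 light chain constant genes, all at least 2-fold lower in both libraries, stood at ratios of 0.192 (PBS) and 0.0744 (CFA). Igkc was 1264 against 5214 CPM after PBS and 329 against 2282 CPM after CFA. Ighm was 0.47 and 0.68 of the surrogate-negative level. Of 15 later B-cell genes, 8 could be compared, and Cd74, Fcmr, H2-Eb1 and Ms4a1 (CD20) were at least 2-fold lower in both libraries. Ly6d stood at ratios of 0.14 and 0.02, Bank1 of 0.21 and 0.02, Cd38 of 0.12 and 0.13, and Il2ra, the CD25 subunit that small pre-B cells carry, of 0.12 and 0.19. Syk and Lyn, kinases downstream of the pre-B receptor, were at 0.53 and 0.39 and at 0.49 and 0.38. Reln, a secreted glycoprotein, stood at 0.03 and 0.06.

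**Figure D4:**
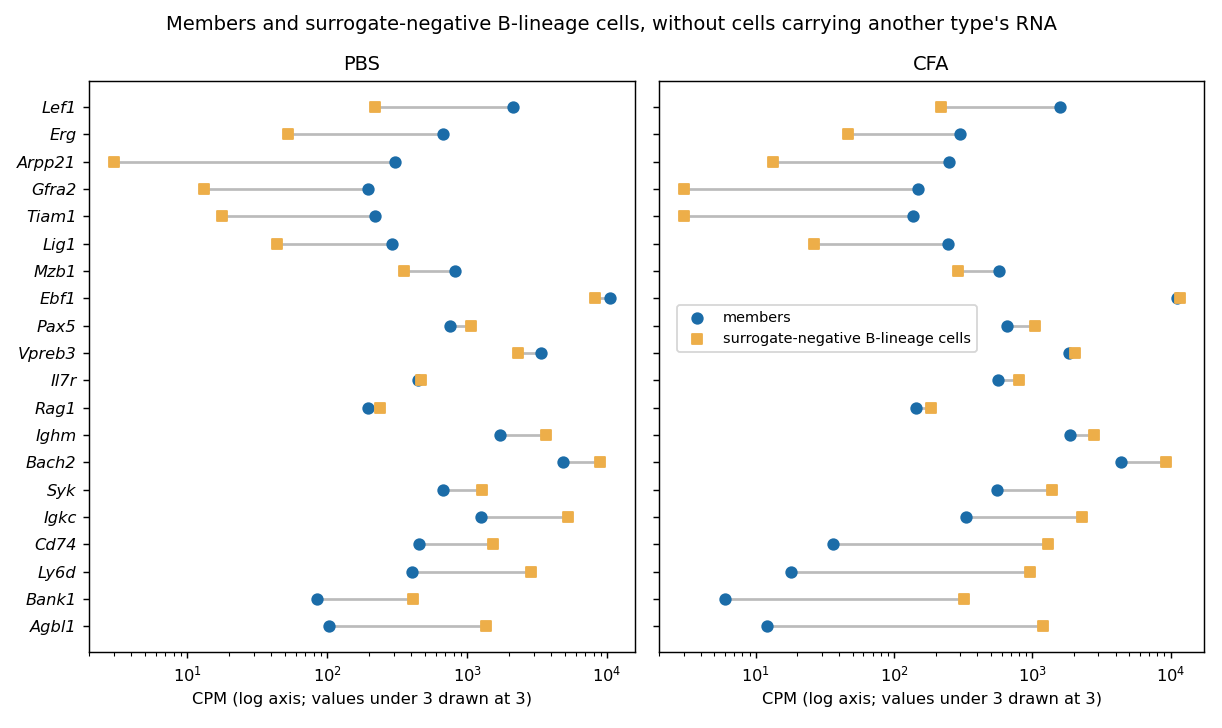
CPM (log axis, values under 3 drawn at 3) of 20 genes in members (circles) and surrogate-negative B-lineage cells (squares) of each library, without cells that carry another type's RNA. Lef1, Erg, Arpp21 and Gfra2 stand higher in members in both panels, and Igkc, Cd74, Ly6d, Bank1 and Agbl1 lower.

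Between CFA and PBS members, the surrogate light chain and light chain genes were lower after CFA. Of 3933 genes averaging at least 50 CPM in the members, 315 (8.01%) were at least 2-fold higher after CFA and 253 (6.43%) at least 2-fold lower, without a test. Without the 4 stromal-RNA members, 7.36% and 7.44% of 3873 genes passed, and in the wider set 2.09% and 2.91% of 3924. Over the 1755 genes that reached 20 UMIs in both libraries, the median ratio was 1.05 (0.07 on the log2 scale). A list's count of genes past 2-fold is read against these shares.

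The surrogate light chain list, with Vpreb2 and Vpreb3 beside the rule's own genes, stood at 5773 CPM after PBS and 3776 CPM after CFA, a ratio of 0.654 (0.596 to 0.718), and at 0.588 without the stromal-RNA members and 0.759 in the wider set. Of its 4 genes, 0 were at least 2-fold higher and Vpreb2 was at least 2-fold lower, although it stood at 0.73 in the wider set. Vpreb3 was 2732 and 1702 CPM (ratio 0.62), and 0.55 without the stromal-RNA members. Within the Dntt-positive cells, Igll1 and Vpreb1 together were 4644 CPM after PBS and 3267 CPM after CFA, a ratio of 0.703 (0.602 to 0.820). Without the stromal-RNA members that ratio was 0.649 (0.548 to 0.767). In the dividing cells Igll1 and Vpreb1 were 531 and 960 CPM, a ratio of 1.81 (1.22 to 2.75) in the opposite direction. In the Dntt-negative cells they were 1077 and 3236 CPM, a ratio of 3.00 (1.85 to 4.92). After CFA, 1 dividing cell held 43 of that group's 105 surrogate UMIs, and 1 Dntt-negative cell held 23 of 44. Only 1 or 2 surrogate UMIs were held by 4 of the 7 Dntt-negative PBS cells and 0 of the 4 CFA cells. Among dividing cells this held for 4 of 7 and 2 of 9, so both ratios rest partly on cells at the rule's limit. The surrogate genes chose the cells, so their levels describe them.

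Dntt was 570 CPM after PBS and 257 CPM after CFA (ratio 0.45, 0.32 to 0.63), with 116 and 51 UMIs. Per cell it ran from 0 to 18 UMIs (median 2) after PBS and from 0 to 13 (median 0) after CFA. Of 8 recombination genes that could be compared, 0 were at least 2-fold higher and only Dntt was at least 2-fold lower, and the list, which rests on Hmgb1 and Hmgb2, stood at 1.16. Without the stromal-RNA members Rag2 (0.35) joined Dntt, and in the wider set, where Dntt stood at 0.58, 0 of the recombination genes were at least 2-fold lower. Erg was 555 and 302 CPM (ratio 0.54), but 0.92 in the wider set. Lef1 was 1779 and 1697 CPM (ratio 0.95, 0.82 to 1.11) over all members, but 1 stromal-RNA cell held 74 of its 337 UMIs after CFA. Without stromal-RNA members the Lef1 ratio was 0.766 (0.621 to 0.940) in Dntt-positive cells, against 1.07 (0.895 to 1.28) with them. In dividing cells it was 0.995 (0.701 to 1.42), and in Dntt-negative cells 7.14 (3.16 to 18.2), from 8 and 27 UMIs. In that group 1 CFA cell held 20 of the 27 UMIs. Of 19 transcription factors, 0 were at least 2-fold higher and Id3 and Spib were at least 2-fold lower. Without the stromal-RNA members Erg (0.44) joined these 2, and in the wider set Id3 (0.66) and Spib (0.76) were no longer 2-fold lower.

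Immunoglobulin light chain constant genes were 973 CPM after PBS and 292 CPM after CFA (ratio 0.30, 0.22 to 0.404), and the 15 later B-cell genes 1607 and 584 CPM (ratio 0.364, 0.292 to 0.451). Igkc was in 11 of 29 PBS members, up to 34 UMIs in a cell, and in 16 of 23 CFA members, up to 10 UMIs. It was also in 1.80% of PBS and 13.8% of CFA endothelial cells, and the part of such background was not tested. Within the groups its ratio was 0.0536 (0.0144 to 0.140) in Dntt-negative and 0.696 (0.440 to 1.11) in dividing cells, while Dntt-positive cells held 0 and 10 UMIs. Ms4a1 summed to 19 UMIs in 5 PBS members and to 0 in the CFA members. Cd74, the invariant chain, summed to 70 UMIs in 4 PBS members, up to 46 in a cell, and to 6 in CFA (ratio 0.09, and 0.44 in the wider set). A single surrogate UMI had chosen 6 of the PBS members. Of the Dntt-negative cells, 4 of 7 after PBS and 0 of 4 after CFA held only 1 or 2 surrogate UMIs. With at least 2 surrogate UMIs required, the ratio was 0.558 for light chains and 0.767 for later B-cell genes. In the wider set the ratios were 0.677 and 0.577. The heavy chain genes stood at a ratio of 1.197 (1.13 without the stromal-RNA members).

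Cell cycle genes stood higher after CFA in the members, with 2501 and 2976 CPM for DNA replication (ratio 1.19) and 1808 and 2759 CPM for mitosis (ratio 1.53), and 1.33 (1.22 to 1.46) for both lists together. Fen1 and Mcm2 of 17 replication genes and Ccna2, Ccnb2 and Mki67 of 13 mitosis genes were at least 2-fold higher. The ratio of both lists was 1.21 without the stromal-RNA members and 1.02 in the wider set, where the shares of dividing cells also lay closer. In the wider set Ccna2 (1.28), Ccnb2 (1.30), Mki67 (1.17) and Mcm2 (1.78) were below 2-fold, and without the stromal-RNA members Ccna2 (1.91) and Mcm2 (1.95) were. Within the dividing cells the difference had the opposite direction, with a ratio of 0.724 (0.639 to 0.821) for replication and 0.910 (0.795 to 1.04) for mitosis. In Dntt-positive cells the replication ratio was 0.748 (0.432 to 1.26) and mitosis genes held 12 and 1 UMIs. These genes defined the dividing group, so the values within groups are a description.

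The MHC class I and peptide loading genes stood at 2555 CPM after PBS and 3847 CPM after CFA (ratio 1.51, 1.35 to 1.69), and 1.25 without the stromal-RNA members. B2m, the class I light chain, was 467 and 911 CPM (ratio 1.95, 1.51 to 2.53), H2-D1 1.77 and H2-K1 1.58. These gene ratios include the stromal-RNA members, and the CFA one held 188 of the list's 764 UMIs. The highest counts in a CFA cell were 54 UMIs for B2m, 56 for H2-D1 and 51 for H2-K1. H2-Q7 was the only gene of 11 past 2-fold, at 39.3 and 186 CPM (ratio 4.74, 2.17 to 11.8), from 8 and 37 UMIs. Without the stromal-RNA members H2-Q7 was still at least 2-fold higher, and Psme1 was at least 2-fold lower. B2m was detected in 24 of 29 PBS members and 23 of 23 CFA members. Within the Dntt-positive cells without stromal RNA, the class I list stood at 1.82 (1.49 to 2.23), and within the dividing cells at 1.21 (0.983 to 1.49) and within the Dntt-negative cells at 1.15 (0.830 to 1.59). The same list stood at 2.0 in the endothelial comparison cells. Without stromal-RNA members, B2m was 3.15 (1.96 to 5.21) in Dntt-positive, 0.905 (0.573 to 1.45) in dividing and 3.27 (1.45 to 7.73) in Dntt-negative cells. H2-K1 was 1.77 (1.24 to 2.53), 1.68 (1.04 to 2.80) and 1.06 (0.566 to 1.91) in the same order.

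Interferon response genes and immediate early genes depended on the 4 stromal-RNA members. The interferon list was 1.39 with them and 0.732 without them, and the immediate early list 0.855 with them and 1.30 without them. Junb, an immediate early gene, was 575 and 176 CPM (ratio 0.31) with them and at a ratio of 1.52 without them, and 1 PBS cell held 55 of its 117 UMIs.

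Several named genes with the largest CFA to PBS ratios came from single stromal-RNA cells. Ly6a held 176 of its 180 CFA UMIs in 1 cell, Abi3bp 69 of 69 and Col5a2 82 of 83. Among the lowest, Lum held 96 of 97 PBS UMIs and Prg4 751 of 757 in 1 cell each, and Igfbp5 58 of 99, Mgp 117 of 119 and Ctsl 22 of 46. Adk and Igf1 were 5.94 and 3.82 with all members, and 3.00 and 1.38 without the stromal-RNA members.

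Pde4d, a cAMP phosphodiesterase, was in 12 of 29 PBS members (22 UMIs) and 22 of 23 CFA members (202 UMIs), at 108 and 1017 CPM, a ratio of 9.41 (6.05 to 15.4), 8.21 without the stromal-RNA members and 7.50 in the wider set. Per cell it ran from 0 to 7 UMIs (median 0) after PBS and from 0 to 33 (median 5) after CFA. The ratio within Dntt-positive cells was 5.16, and 3.16 (1.78 to 5.85) without the stromal-RNA members, and dividing cells held 1 UMI after PBS and 115 after CFA. Pde4d stood 3.80-fold higher after CFA in endothelial cells as well. Tmem108 was 3.56 (2.57 to 4.99) in the members, 1.80 in the wider set and 4.18 in endothelial cells.

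Btaf1, a TATA-binding protein cofactor, was in 11 PBS and 19 CFA members, at a ratio of 4.57 (2.48 to 9.10) and 2.51 in the wider set, and Tnfrsf19 in 10 and 20 members at 3.63 (1.93 to 7.32). Auts2 was 3.66 with all members and 6.85 without the stromal-RNA members, and 2.23 in the wider set. It was in 7 of 29 PBS and 9 of 23 CFA members, with up to 31 UMIs in 1 cell, and dividing cells held 5 UMIs after PBS and 1 after CFA. Cdk6, a G1 kinase, was in 16 of 29 and 20 of 23 members at 3.53 (2.39 to 5.33), although 1 CFA cell held 47 of its 117 UMIs and the wider set gave 1.95. On the other side, Cd52, a surface peptide of lymphocytes, was 378 and 85.6 CPM (ratio 0.23, 0.13 to 0.39), with up to 25 UMIs in 1 PBS cell and a ratio of 0.40 in the wider set. The 7 Dntt-negative PBS cells held 59 of its UMIs and the 4 CFA cells 2, and the ratio was 0.798 (0.242 to 2.36) in Dntt-positive and 0.753 (0.25 to 2.38) in dividing cells. Hist1h2ap, a replication-dependent histone, stood at 0.25 (0.40 in the wider set), Gm30948 at 0.31 and Napsa at 0.31 (0.73). Cd52 was 8.22-fold higher after CFA in endothelial cells, the opposite direction.

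**Figure D5:**
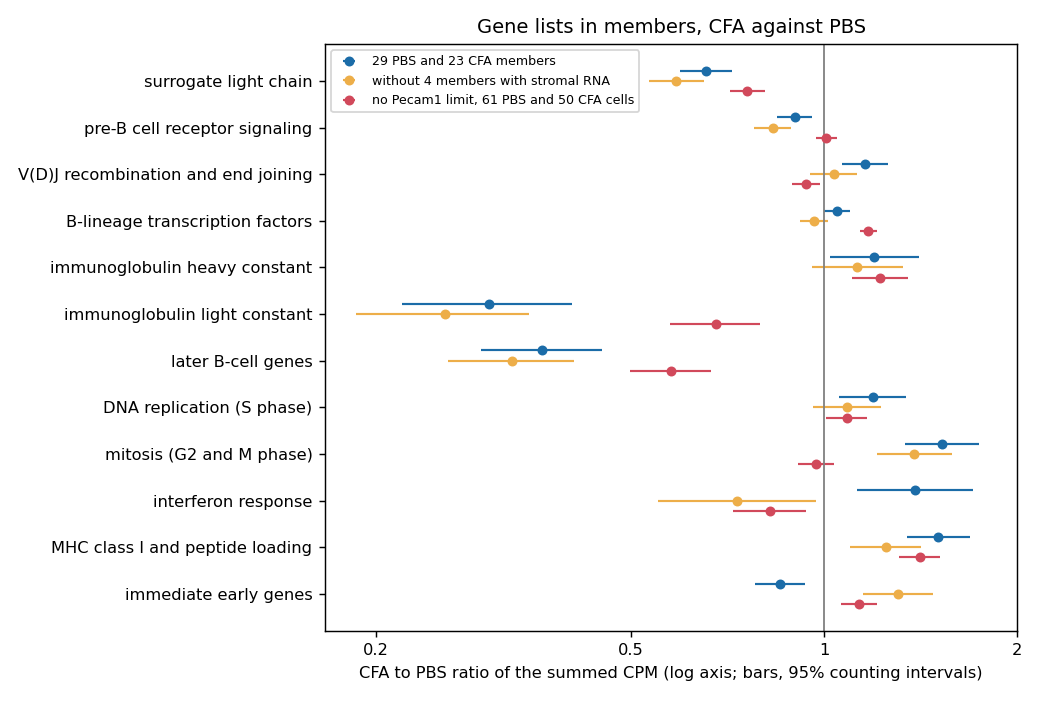
CFA to PBS ratio (log axis) of the summed CPM of each gene list in the members, without the 4 stromal-RNA members, and without the Pecam1 limit, with 95% counting intervals. Surrogate light chain, light chain constant and later B-cell genes lie left of 1 in all 3 sets. The signaling, recombination, transcription factor, interferon and immediate early lists fall on both sides of 1 across the sets.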

How the data were processed

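Single-cell RNA-seq was done on 1 library per condition, and the deposited files hold raw UMI counts per gene and barcode that the authors made with Cell Ranger 7.0.1, named in the submitters' processing notes. The matrices hold 32285 genes and total 51146169 UMIs after PBS and 53517206 after CFA. Per the study's methods, the alignment used mouse build GRCm38 (mm10). The limits on genes and mitochondrial UMIs were those of the study's methods, and the others came from the members' rule. The members and all 24 gene lists (245 genes) were chosen with earlier results of these data known. The dividing limit and the exclusion of barcodes with RNA of another cell type were chosen after values were seen.

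UMIs were summed over the members of a library and scaled to 1000000 (CPM). Genes averaging at least 50 CPM over the sets compared were counted as past a difference at 2-fold or more, with a count of 0 set to 3 UMIs. Named genes were those of the lists, the 10 highest and 10 lowest CFA to PBS ratios among genes reaching 10 UMIs in both libraries, and the 15 highest and 15 lowest ratios of members to surrogate-negative cells, ranked by the smaller change of the 2 libraries. Genes of immunoglobulins, hemoglobins, ribosomal proteins and mitochondria were not ranked, and the ranking was repeated without the barcodes with other cells' RNA. Depth was compared by thinning each cell to 1000 UMIs. Doublets were scored with scrublet in scanpy 1.11.5, whose automatic threshold marked 21 PBS and 2 CFA kept barcodes, and none were removed. Alternatives were the doublet score, stricter rule limits, other scalings, means over cells and other CPM minimums. The Pecam1 and stromal-RNA alternatives were added after the data were seen. Python 3.11.15 with numpy 2.4.6, scipy 1.17.1, pandas 2.3.3 and Biopython 1.88 was used, and the ratio calculations were tested on simulated data. Promoter windows came from a RefSeq table of GRCm38.p6.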

Additional observations from a re-analysis of the deposited data

How the results depend on the processing

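No paired analysis was possible because each condition has 1 library. Of 152 alternative values for 27 results, 83 moved by less than their counting interval, 59 moved by more and 10 changed direction. Their causes were not tested. Thinning barcodes to 1000 UMIs before the rule put the CFA to PBS ratio of the members' share at 0.288, and thinning the members put that of the cell cycle lists at 1.197. In CFA to PBS ratios, the mean over members gave 1.19 for both cell cycle lists, 0.731 for surrogate light chain, 0.963 for pre-B receptor signaling (0.900 from the sums), 0.183 for light chain constant, 1.05 for interferon response and 1.2 for immediate early genes, which changed direction. Without the Pecam1 limit the values were 1.02 for cell cycle, 0.759 for surrogate light chain, 1.17 for transcription factors, 0.677 for light chain and 0.577 for later B-cell genes, and signaling (1.01), recombination (0.937), interferon response (0.823) and immediate early genes (1.13) changed direction. Without the stromal-RNA members they were 1.21 for cell cycle, 0.588 for surrogate light chain, 0.831 for signaling, 1.03 for recombination, 0.963 for transcription factors and 1.25 for MHC class I, and interferon response (0.732) and immediate early genes (1.30) changed direction. Requiring 2 surrogate UMIs gave 0.592 for surrogate light chain, 1.42 for heavy chain, 0.558 for light chain and 0.767 for later B-cell genes, and scaling by the median ratio gave 0.994 for transcription factors (1.05 from the sums). Genes past 2-fold numbered 897 higher and 740 lower at 20 CPM, 107 and 93 at 100 CPM, and 82 and 114 without the Pecam1 limit.

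In ratios of members to surrogate-negative cells, given for PBS then CFA, the sums over all cells were 1.19 and 3.08 for recombination, 1.06 and 1.64 for transcription factors, 0.154 and 0.00507 for light chain, 0.392 and 0.369 for later B-cell genes, 2.22 and 6.99 for replication, and 0.781 and 2.27 for mitosis. Leaving out cells with another type's RNA gave 1.44 and 1.87, 1.18 and 0.912 (a change of direction in CFA), 0.192 and 0.0744, 0.457 and 0.201, 2.69 and 4.65, and 0.966 and 1.25 in the same order. The mean over cells gave 1.497 and 2.40 for recombination, 1.16 and 1.03 for transcription factors, 0.235 and 0.0142 for light chain, 0.544 and 0.230 for later B-cell genes, 2.71 and 4.55 for replication, and 1.14 for mitosis in PBS, which changed direction. Without the Pecam1 limit, PBS gave 1.61 for recombination, 0.313 for later B-cell genes, 2.98 for replication and 1.73 for mitosis, which changed direction, and CFA gave 1.32 for transcription factors, 0.0129 for light chain and 4.06 for mitosis. With 2 surrogate UMIs required, PBS gave 0.0833 for light chain and 0.188 for later B-cell genes, and CFA gave 1.97 for mitosis. With 29 and 23 members, shares could not be told apart between conditions unless they differed widely, and sums of a low gene can rest on 1 cell.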
